A study of Mus musculus with 4 samples.

Results

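The DNA replication machinery was followed here as 40 genes chosen by symbol for their known role, out of the 24346 gene names in the deposited tables. All 40 were present in every table, and all 40 passed the filter on low values. They encode the proteins that mark and license replication origins, the MCM helicase and its activators, the replicative polymerases with primase, the sliding clamp and its loader, the single-strand binding protein, and the enzymes that finish the lagging strand. The samples were *in vitro* MDSCs, immature myeloid cells grown from bone marrow (BM) cells of C57BL/6J mice, which the study used as females of 6 to 8 weeks. The BM cells were cultured for 4 days with 40 ng/ml GM-CSF alone (Control, 2 libraries) or with G-CSF as well, at 5 ng/ml (2 libraries, called G-CSF), so that both groups received GM-CSF. Poly(A) RNA was sequenced from stranded libraries, and the authors deposited a table of FPKM for each library (fragments scaled to transcript length and to the mapped reads of the library). The study describes the libraries of a group as biological replicates, but does not say whether the cultures came from different mice.

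Eukaryotic cells copy their DNA from many origins. The origin recognition complex binds them, CDC6 and CDT1 load the hexameric MCM2 to MCM7 helicase in G1, and CDC45 and GINS switch the helicase on in S phase. Polymerase alpha with primase then starts each strand, polymerases epsilon and delta extend them, PCNA holds the polymerases on the template, and FEN1 and LIG1 join the fragments of the lagging strand. Many of these genes are transcribed mainly in dividing cells, under E2F transcription factors, so their mRNA is widely used as a sign of cycling cells. In the myeloid lineage, progenitors divide, whereas mature neutrophils have left the cell cycle. In RNA from a whole culture, more dividing cells and more replication mRNA per cell cannot be told apart.

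The libraries were similar in depth. From the steps between low values, where a step is a single read, they held about 12450000 to 15700000 mapped reads, and the members had between 165 (*Orc1*, Control replicate 1) and 6380 (*Mcm6*, G-CSF replicate 2) estimated reads. These estimates use the longest coding transcript of each gene. The myeloid label was checked against defining markers. *S100a8* and *S100a9*, alarmins of neutrophils and monocytes, stood between 20506 and 35613 FPKM, and *Itgam*, which encodes CD11b, stood between 395 and 519.8 FPKM. All 3 fell with G-CSF. *Ly6c1* and *Ly6c2*, also of the list of defining markers, did not pass (limma, adjusted p = 0.735 and 0.136). *Ly6g* is not among the gene names of the tables used here. The extraction text of the labels names liver tissue, unlike the sample names and the study's methods, and the liver genes *Alb*, *Apoa1* and *Ttr*, chosen after the values were seen, were listed at 0 in all 4 libraries. Across the 11698 genes tested, Pearson's r of log2(FPKM + 0.1) was 0.992 between the Control libraries, 0.993 between the G-CSF libraries, and 0.983 to 0.986 between libraries of different groups, with genes not being independent replicates.

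Replication genes stood slightly but broadly higher with G-CSF. All 40 had a fitted log2 fold change above 0, from 0.059 for *Rfc3* to 0.54 for *Orc2*, with a median of 0.28, which is a fold of 1.21. Among all genes tested, 50.8% had a fitted value above 0, the median was 0.0058, and the middle 50% lay between -0.18 and 0.17. The median member stood at percentile 86.7 of this distribution. In 38 of the 40 genes the lower of the G-CSF values exceeded the higher of the Control values, against 34.2% of all genes tested. The members together made up 0.204% and 0.215% of all FPKM in the Control libraries and 0.263% and 0.258% in the G-CSF libraries. The study's own pathway analysis of these samples had named DNA replication, so that the direction of the list is not independent evidence. For that analysis its methods give an adjusted p under 0.05 and a fold change over 2, which 0 of the 40 members passed here. The reason for this difference was not tested.

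At an adjusted p under 0.05 (limma on log2(FPKM + 0.1), two-sided, Benjamini-Hochberg adjustment over all genes tested), 25 of the 40 members rose and none fell. Over all genes tested, 12.7% passed in the direction of higher and 11.3% in the direction of lower (24.0% in all), against 62.5% of the members that passed as higher. The study's threshold also asks for a fold change over 2, which 0.504% of all genes passed as higher and 1.36% in either direction. Of the members, 0 passed it with limma and 0 with limma's voom. An unadjusted p under 0.05 with limma was reached by 35 of the 40 members and by 4575 of the 11698 genes tested. The number of members that rose was 15 without Control replicate 1, 17 without Control replicate 2, 16 without G-CSF replicate 1 and 19 without G-CSF replicate 2, where 6.79%, 7.44%, 5.70% and 7.09% of all genes passed as higher. The call also depends on how limma models the spread. When the prior variance did not follow expression level, 27 members had an unadjusted p under 0.05, a count not made for all genes. At the adjusted threshold 0 members passed in that fit (lowest adjusted p = 0.0525), and 0.410% of all genes passed as higher. With voom on estimated reads, an alternative chosen after that result was seen, 28 members rose, among them 23 of the 25, and 15.1% of all genes passed as higher.

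**Figure D1:**
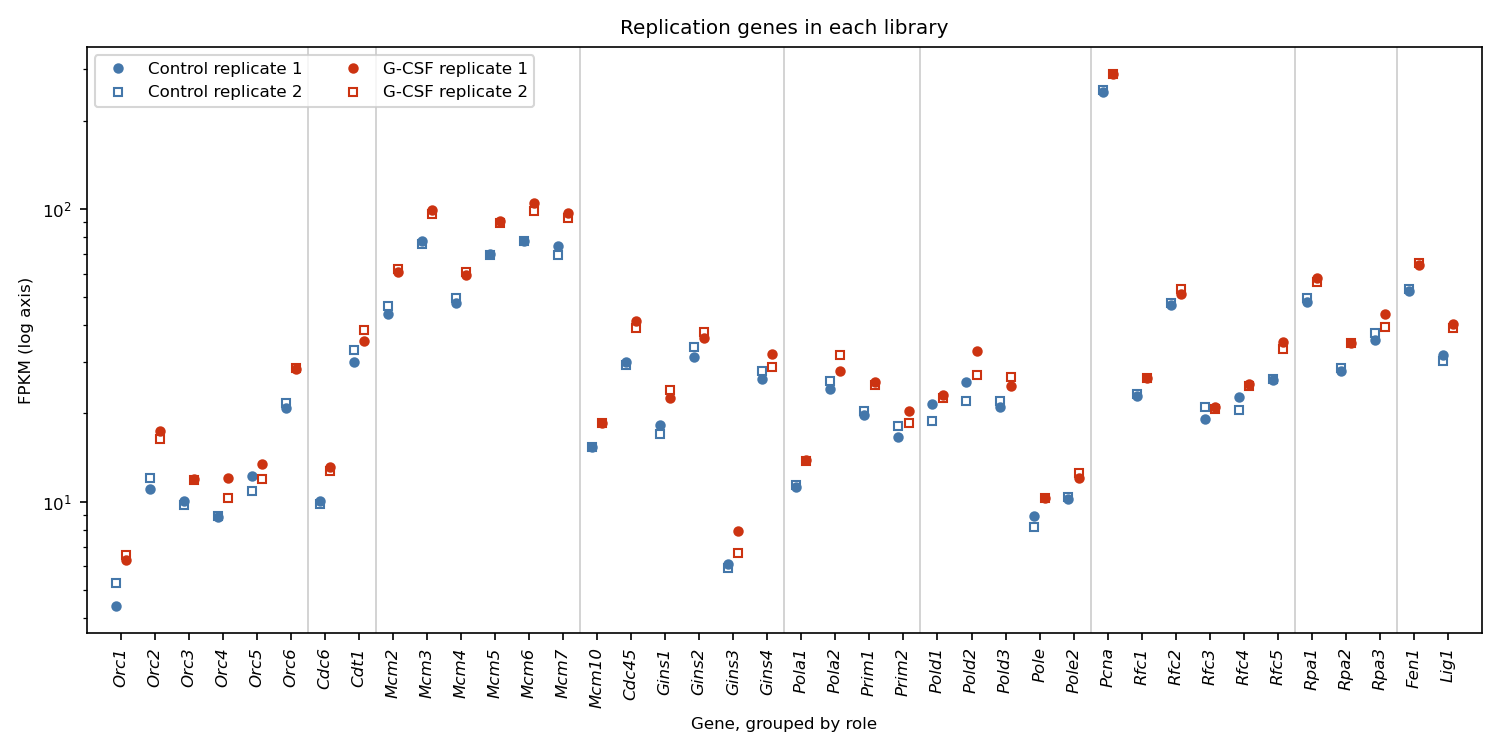
FPKM (log axis) of the 40 replication genes in each library, ordered by role along the horizontal axis with vertical lines between roles; blue marks are the Control libraries, red marks the G-CSF libraries, circles replicate 1 and squares replicate 2. In 38 genes both red marks lie above both blue marks, an order that 34.2% of all genes tested had. *Pcna* stands above all other members.

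E2F factors bind a short GC-rich element, and the windows that carry it are shown as a description. The members were chosen for their role in replication, and many such genes are known to be under E2F factors. A high share of matches among them is therefore not independent evidence. RefSeq promoter windows (GRCm38.p6, 250 bases before to 50 bases after the start site) were found for 33 of the 40 members. They were searched on both strands for the 8-base E2F-type elements TTTCCCGC, TTTCGCGC, TTTGCCGC and TTTGGCGC. At least 1 match was present in 15 of the 33 members (45.5%), compared with 4.76% of the 9004 tested genes with a window and 2.60% of all 27025 genes with a window. The members held 21 matches, 12 of which began upstream of the start site, and the pairs of matches at the same place in *Mcm5* and *Mcm6* overlap each other. A few windows follow, chosen to show genes of origin recognition, licensing, the helicase and polymerase alpha. They are written in the direction of the gene, with the bases of 1 match in capitals. The overlapping matches of *Mcm5* and *Mcm6* are not marked.
*Mcm5*, chr8:75109345-75109374, plus strand: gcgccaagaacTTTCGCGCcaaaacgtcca
*Mcm6*, chr1:128359797-128359826, minus strand: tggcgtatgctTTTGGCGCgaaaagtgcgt
*Mcm6*, chr1:128359734-128359763, minus strand: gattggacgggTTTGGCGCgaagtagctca
*Mcm7*, chr5:138172030-138172059, minus strand: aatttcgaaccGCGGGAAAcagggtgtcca
*Mcm7*, chr5:138171849-138171878, minus strand: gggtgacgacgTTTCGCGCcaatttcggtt
*Mcm3*, chr1:20820275-20820304, minus strand: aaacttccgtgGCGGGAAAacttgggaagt
*Cdc6*, chr11:98908002-98908031, plus strand: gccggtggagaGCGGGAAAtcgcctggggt
*Cdt1*, chr8:122568036-122568064, plus strand: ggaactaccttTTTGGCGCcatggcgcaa
*Orc1*, chr4:108579416-108579445, plus strand: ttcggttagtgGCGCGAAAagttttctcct
*Pola1*, chrX:93632275-93632304, minus strand: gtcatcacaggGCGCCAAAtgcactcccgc
Counted from the start site as 0, these matches began at -153 in *Mcm5*, at -110 and -47 in *Mcm6*, at -165 and 16 in *Mcm7*, at 19 in *Mcm3*, at -138 in *Cdc6* and *Pola1*, at 32 in *Cdt1* and at -27 in *Orc1*. Members with and without a match had similar values, a difference that was not tested. The median log2 fold change was 0.29 for the 15 members with a match, of which 11 rose, and 0.30 for the 18 without, of which 12 rose. The CCAAT box (CCAAT on either strand) was found in 63.6% of the 33 members and 43.1% of tested genes, and TTTGAA, the CHR element of late cell cycle genes, in 15.2% and 14.4%. A match is a string of letters and was not tested for binding.

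**Figure D2:**
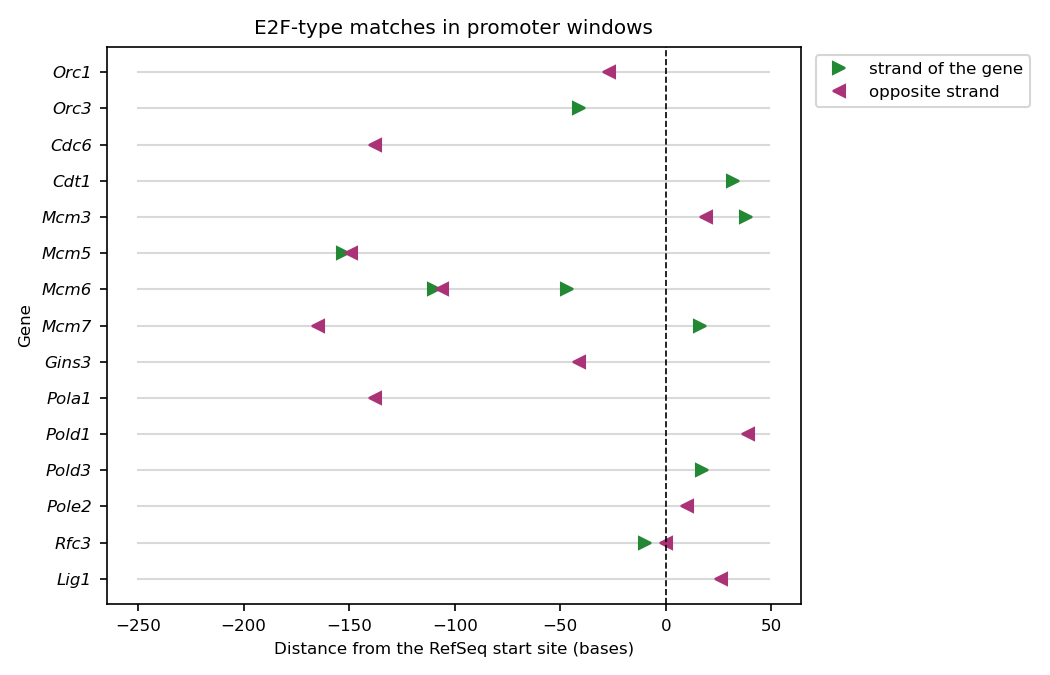
Distance in bases from the RefSeq start site (dashed line) of each E2F-type match in the promoter windows of the 15 members with a match; right-pointing green marks lie on the strand of the gene and left-pointing purple marks on the opposite strand. Upstream of the start, *Mcm5* has an overlapping pair of matches and *Mcm6* an overlapping pair and a separate match at -47, and those of *Cdt1*, *Mcm3*, *Pold1*, *Pold3*, *Pole2* and *Lig1* lie downstream of it.

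The origin recognition complex is the platform on which helicases are loaded, and 4 of its 6 genes rose. *Orc2*, on chromosome 1 (58462771 to 58505109, GRCm38), encodes a core subunit and showed the largest difference of all members. It stood at 11.1 and 12.05 FPKM in Control and 17.4 and 16.3 FPKM with G-CSF. Both G-CSF libraries were above both Control libraries (log2 fold change 0.54, SE 0.0752, adjusted p = 0.00748). In the annotation 29.8% of its exonic bases lie opposite exons of *Nif3l1*, and the sources used here do not say whether strand was used in the quantification. *Orc6*, the subunit least related to the others, stood at 20.9 and 21.6 FPKM in Control and 28.5 and 28.7 FPKM with G-CSF (log2 fold change 0.43, SE 0.0540, adjusted p = 0.00634), and again the groups did not overlap. *Orc1*, an ATPase subunit, had the lowest level of all members. Its values were 4.39 and 5.25 FPKM in Control and 6.30 and 6.55 FPKM with G-CSF, and the Control libraries differed from each other more than the G-CSF libraries (log2 fold change 0.41, SE 0.114, adjusted p = 0.0448). *Orc1* kept its call only without Control replicate 2 (adjusted p = 0.0331), and its adjusted p was 0.157 without Control replicate 1, 0.109 without G-CSF replicate 1 and 0.137 without G-CSF replicate 2. *Orc3* stood at 10.03 and 9.73 FPKM in Control and 11.9 and 11.8 FPKM with G-CSF (log2 fold change 0.26, SE 0.0680, adjusted p = 0.0380). It did not pass with any library left out (adjusted p = 0.0956 to 0.134) or with voom (adjusted p = 0.0556). *Orc4* and *Orc5* did not pass with all 4 libraries. *Orc4* stood at 8.87 and 8.93 FPKM in Control and 12.1 and 10.2 FPKM with G-CSF (log2 fold change 0.32, 95% interval 0.088 to 0.55, adjusted p = 0.0557), and passed when G-CSF replicate 2 was left out (adjusted p = 0.0344). *Orc5* had overlapping groups, with 12.2 and 10.8 FPKM in Control and 13.4 and 11.96 FPKM with G-CSF, and a 95% interval of -0.086 to 0.36 on the log2 scale.

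CDC6 and CDT1 bring the helicase to the origin. *Cdc6*, whose product is an ATPase that closes the ring of the origin recognition complex, rose. It stood at 10.01 and 9.83 FPKM in Control and 13.1 and 12.7 FPKM with G-CSF, with the libraries of each group close together (log2 fold change 0.38, SE 0.0675, adjusted p = 0.0136). Without G-CSF replicate 1 its adjusted p was 0.0582. *Cdt1* stood at 30.02 and 32.9 FPKM in Control and 35.3 and 38.5 FPKM with G-CSF, again without overlap, but did not pass (log2 fold change 0.23, 95% interval 0.061 to 0.40, adjusted p = 0.0587). The gene for geminin, the protein that binds and inhibits CDT1, is among the accessory genes described further on.

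All 6 genes of the MCM2 to MCM7 helicase rose, by 0.31 to 0.45 on the log2 scale. MCM proteins unwind the parental strands, and the ring holds 1 copy of each of the 6 subunits. Their summed level was 391.6 and 388.4 FPKM in Control and 512 and 499 FPKM with G-CSF. *Mcm2*, on chromosome 6 (88883474 to 88898780), stood at 43.7 and 46.8 FPKM in Control and 61.05 and 62.3 FPKM with G-CSF (log2 fold change 0.45, SE 0.0532, adjusted p = 0.00576). *Mcm5*, on chromosome 8 (75109569 to 75128439), stood at 69.99 and 69.4 FPKM in Control and 91.3 and 89.4 FPKM with G-CSF, and had the lowest adjusted p of all members (log2 fold change 0.37, SE 0.0434, adjusted p = 0.00559). *Mcm6*, on chromosome 1 (128331590 to 128359664), stood at 77.5 and 77.8 FPKM in Control and 105 and 98.04 FPKM with G-CSF (log2 fold change 0.38, SE 0.0497, adjusted p = 0.00655). In these 3 genes the gap between the groups was several times the distance between libraries of a group. *Mcm7*, on chromosome 5 (138164583 to 138172422), stood at 74.97 and 69.5 FPKM in Control and 96.7 and 92.8 FPKM with G-CSF (log2 fold change 0.39, SE 0.0549, adjusted p = 0.00770). Of the 75-base windows of its transcripts, 9.49% occur in another gene, mainly *Gm5487*. *Mcm3*, on chromosome 1 (20802968 to 20820312), stood at 77.9 and 75.6 FPKM in Control and 98.8 and 95.8 FPKM with G-CSF (log2 fold change 0.34, SE 0.0454, adjusted p = 0.00675). *Mcm4*, on chromosome 16 (15623897 to 15637400), stood at 47.6 and 49.5 FPKM in Control and 59.7 and 61.04 FPKM with G-CSF, the smallest difference of the 6 (log2 fold change 0.31, SE 0.0480, adjusted p = 0.00936). All 6 passed whichever library was left out. In Control the mean FPKM ran from 45.2 for *Mcm2* to 77.6 for *Mcm6*, a ratio of 1.72, and with G-CSF from 60.4 for *Mcm4* to 101.4 for *Mcm6*, a ratio of 1.68. FPKM is scaled to transcript length, so these levels can be set beside each other. Among the genes of the origin recognition complex the same ratio was 4.41 in Control and 4.45 with G-CSF. These ratios were not tested against each other.

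The loaded helicase is switched on by CDC45 and the GINS complex of 4 proteins, with help from MCM10. Of these 6 genes, 3 rose. *Cdc45*, a subunit of the active helicase, stood at 29.9 and 29.3 FPKM in Control and 41.4 and 39.2 FPKM with G-CSF (log2 fold change 0.44, SE 0.0539, adjusted p = 0.00600), a difference of the same order as those of the MCM genes. *Gins1* stood at 18.2 and 17.01 FPKM in Control and 22.6 and 24.1 FPKM with G-CSF (log2 fold change 0.40, SE 0.0669, adjusted p = 0.0114). *Mcm10* stood at 15.4 and 15.3 FPKM in Control and 18.5 and 18.6 FPKM with G-CSF, with nearly equal values within each group (log2 fold change 0.27, SE 0.0578, adjusted p = 0.0222). It did not pass with any library left out (adjusted p = 0.0710 to 0.0776), whereas *Cdc45* and *Gins1* passed each time. The other 3 GINS genes did not pass. *Gins2* stood at 31.3 and 33.8 FPKM in Control and 36.1 and 37.8 FPKM with G-CSF (log2 fold change 0.18, 95% interval 0.038 to 0.33, adjusted p = 0.0716), and 67.3% of its exonic bases lie opposite *Gse1*. *Gins3*, with *Orc1* and *Pole* among the 3 lowest members, stood at 6.09 and 5.92 FPKM in Control and 7.91 and 6.65 FPKM with G-CSF (log2 fold change 0.27, 95% interval 0.0089 to 0.53, adjusted p = 0.118). *Gins4* stood at 26.1 and 27.9 FPKM in Control and 31.8 and 28.8 FPKM with G-CSF (log2 fold change 0.17, 95% interval -0.0010 to 0.33, adjusted p = 0.129). In all 4 GINS genes both G-CSF values exceeded both Control values, an order that 34.2% of all genes tested had. Of the 4, only *Gins1* passed. Whether the GINS genes differ from each other in response was not tested.

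Polymerase alpha and primase lay down the RNA-DNA primers, and 2 of their 4 genes rose, the catalytic subunit of each enzyme. *Pola1* stood at 11.2 and 11.4 FPKM in Control and 13.8 and 13.8 FPKM with G-CSF (log2 fold change 0.29, SE 0.0637, adjusted p = 0.0245). Its adjusted p was between 0.0729 and 0.0890 with each library left out. *Prim1*, the primase catalytic subunit, stood at 19.8 and 20.3 FPKM in Control and 25.7 and 25.01 FPKM with G-CSF (log2 fold change 0.34, SE 0.0553, adjusted p = 0.0113) and passed with each library left out. The accessory subunits did not pass, and their difference from the catalytic subunits was not tested. *Pola2* stood at 24.3 and 25.9 FPKM in Control and 27.9 and 31.6 FPKM with G-CSF (log2 fold change 0.24, 95% interval 0.058 to 0.43, adjusted p = 0.0644), and passed without G-CSF replicate 1 (adjusted p = 0.0421). *Prim2* stood at 16.6 and 18.1 FPKM in Control and 20.3 and 18.6 FPKM with G-CSF, and its 95% interval of -0.022 to 0.35 includes 0.

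Polymerases delta and epsilon copy the lagging and the leading strand. Of their 5 genes, *Pold3* and *Pole2*, both accessory subunits, rose. *Pold3* stood at 21.1 and 22.02 FPKM in Control and 24.7 and 26.6 FPKM with G-CSF (log2 fold change 0.25, SE 0.0626, adjusted p = 0.0337). *Pole2* stood at 10.2 and 10.4 FPKM in Control and 11.99 and 12.5 FPKM with G-CSF (log2 fold change 0.24, SE 0.0681, adjusted p = 0.0458). Neither passed with any library left out, with adjusted p between 0.0520 and 0.130 for *Pold3* and between 0.107 and 0.168 for *Pole2*. With voom the adjusted p of *Pole2* was 0.103, and 6.10% of its 75-base windows are shared, mainly with the gene *Gm49384*. The other 3 genes did not pass. *Pole*, the catalytic subunit of epsilon, stood at 8.92 and 8.18 FPKM in Control and 10.3 and 10.3 FPKM with G-CSF (log2 fold change 0.27, 95% interval 0.077 to 0.46, adjusted p = 0.0539). *Pold1*, the catalytic subunit of delta, stood at 21.5 and 18.9 FPKM in Control and 23.2 and 22.6 FPKM with G-CSF (log2 fold change 0.18, 95% interval -0.0010 to 0.37, adjusted p = 0.129). *Pold2* stood at 25.7 and 22.1 FPKM in Control and 32.8 and 27.1 FPKM with G-CSF, where the G-CSF libraries differed from each other by nearly as much as the group means (log2 fold change 0.32, 95% interval 0.052 to 0.59, adjusted p = 0.0819), and it passed without G-CSF replicate 2 (adjusted p = 0.0335).

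PCNA is the ring that tethers polymerases, and the RFC complex opens it around DNA. *Pcna*, on chromosome 2 (132249162 to 132253314), was by far the highest member, at 252 and 254 FPKM in Control and 289.95 and 289 FPKM with G-CSF. It rose by a small amount with little spread within groups (log2 fold change 0.20, SE 0.0404, adjusted p = 0.0199). With each library left out its adjusted p was between 0.0632 and 0.0804, and 13.8% of its 75-base windows are shared with other genes, mainly the pseudogene *Pcna-ps2*. Among the clamp loader genes, *Rfc5* and *Rfc1* rose. *Rfc5* stood at 25.98 and 26.3 FPKM in Control and 35.1 and 33.2 FPKM with G-CSF (log2 fold change 0.39, SE 0.0548, adjusted p = 0.00789) and passed with each library left out. *Rfc1*, the large subunit, stood at 22.9 and 23.3 FPKM in Control and 26.4 and 26.4 FPKM with G-CSF (log2 fold change 0.19, SE 0.0526, adjusted p = 0.0444), and did not pass with any library left out (adjusted p = 0.115 to 0.165). The other 3 RFC genes did not pass, and they include the smallest differences among the members. *Rfc2* stood at 47.03 and 47.7 FPKM in Control and 50.99 and 53.2 FPKM with G-CSF (log2 fold change 0.14, 95% interval 0.019 to 0.25, adjusted p = 0.0880). *Rfc4* stood at 22.8 and 20.5 FPKM in Control and 25.3 and 24.9 FPKM with G-CSF (log2 fold change 0.21, 95% interval 0.048 to 0.38, adjusted p = 0.0674). *Rfc3*, at 19.1 and 21.1 FPKM in Control and 21.1 and 20.8 FPKM with G-CSF, had overlapping groups (log2 fold change 0.059, 95% interval -0.10 to 0.22, adjusted p = 0.554), and without Control replicate 1 its log2 fold change was -0.010. The subunits of the loader, which act as a 5-protein complex, thus had 95% intervals that did not overlap for *Rfc3* and *Rfc5*, the latter being 0.25 to 0.52. The difference between these genes was not tested.

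RPA coats single-stranded DNA at the fork. *Rpa1*, the large subunit, stood at 47.9 and 49.5 FPKM in Control and 58.1 and 56.3 FPKM with G-CSF (log2 fold change 0.23, SE 0.0483, adjusted p = 0.0210). *Rpa2* stood at 27.8 and 28.6 FPKM in Control and 34.7 and 34.8 FPKM with G-CSF (log2 fold change 0.30, SE 0.0506, adjusted p = 0.0119). Both rose. *Rpa1* passed only without G-CSF replicate 2 among the fits with a library left out (adjusted p = 0.0457, otherwise 0.0520 to 0.0910), and *Rpa2* had an adjusted p of 0.0504 without Control replicate 1. *Rpa3*, the smallest subunit, stood at 35.6 and 37.5 FPKM in Control and 43.9 and 39.4 FPKM with G-CSF and did not pass (log2 fold change 0.19, 95% interval 0.023 to 0.35, adjusted p = 0.0912). In it 7.34% of the 75-base windows are shared with other genes.

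Both genes of lagging strand maturation rose and passed with each library left out. *Lig1*, the ligase that seals the fragments, stood at 31.7 and 30.3 FPKM in Control and 40.5 and 39.1 FPKM with G-CSF (log2 fold change 0.36, SE 0.0539, adjusted p = 0.00888). *Fen1*, the nuclease that trims the flaps, stood at 52.3 and 53.1 FPKM in Control and 64.2 and 65.3 FPKM with G-CSF (log2 fold change 0.30, SE 0.0450, adjusted p = 0.00932). The exons of *Fen1* lie for 84.2% of their bases opposite *Gm10143* and *Tmem258*, so its value may hold reads of these genes if strand was not used. In 12 members, over 5% of the exonic bases lie opposite exons of other genes. Besides *Fen1*, *Gins2* and *Orc2*, these were *Rfc2* (15.1%), *Rfc4* (12.7%), *Orc1* (10.8%), *Rfc5* (10.7%), *Mcm7* (8.7%), *Orc4* (7.8%), *Orc6* (6.93%), *Cdc45* (5.96%) and *Lig1* (5.79%). The effect on their values was not tested.

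**Figure D3:**
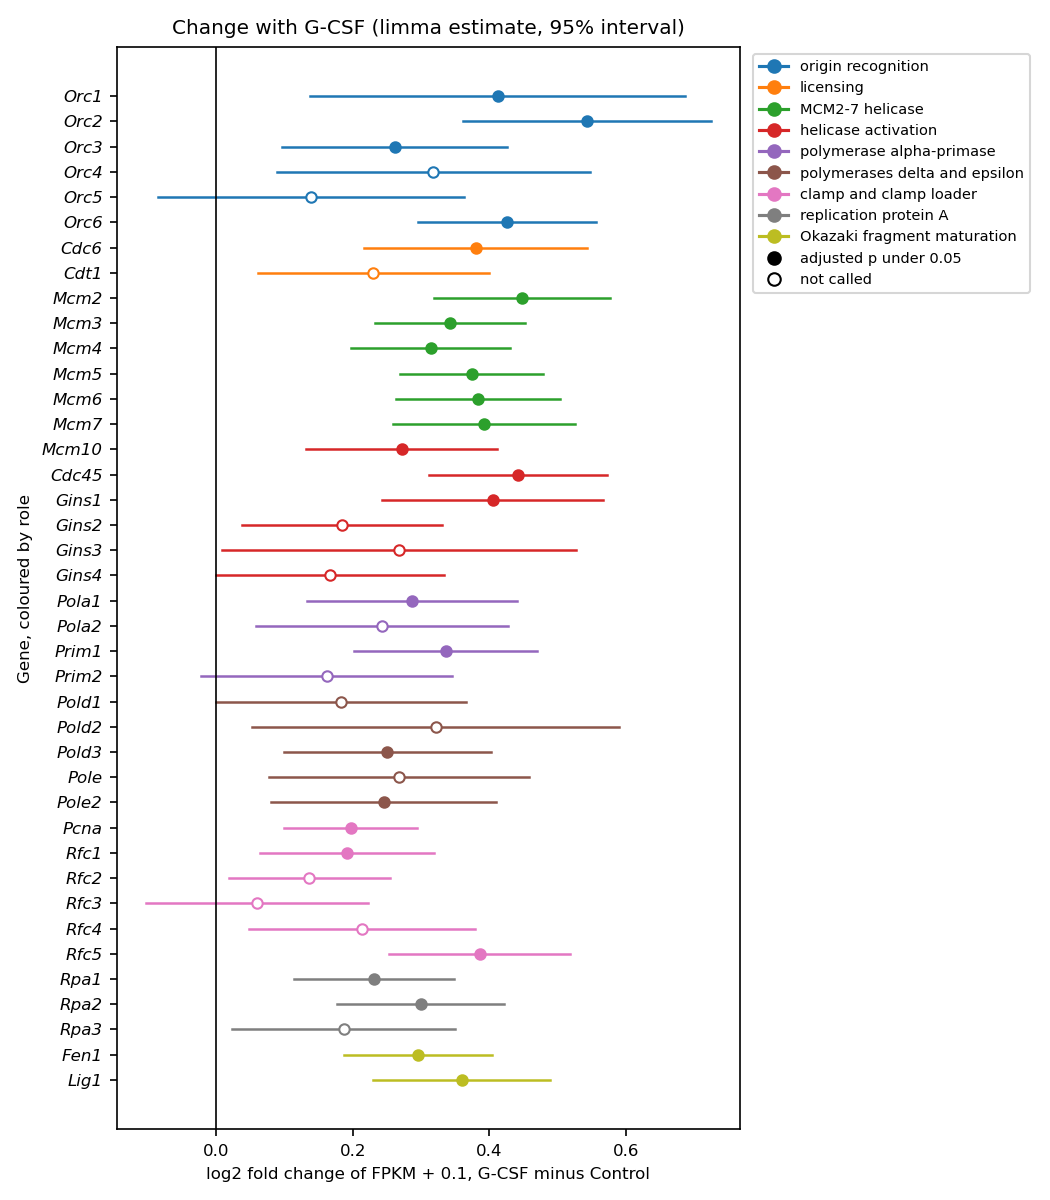
Fitted log2 fold change of FPKM + 0.1 (G-CSF minus Control) for each member with its 95% interval from limma, coloured by role; filled points passed an adjusted p of 0.05 and open points did not. All 40 points lie right of 0, from 0.059 for *Rfc3* to 0.54 for *Orc2*, and 35 intervals lie wholly above 0. Of all 11698 genes tested, 4575 had an unadjusted p under 0.05 with limma, in either direction.

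Taking the roles together, the median log2 fold change was 0.38 for the MCM2 to MCM7 genes, 0.37 for the origin recognition complex and 0.33 for *Fen1* and *Lig1*, and lowest for the clamp and its loader (0.19). It was 0.30 for *Cdc6* and *Cdt1*, 0.27 for the helicase activators, 0.26 for polymerase alpha and primase, 0.25 for polymerases delta and epsilon and 0.23 for RPA. These medians were not tested against each other. Members that passed were also somewhat more abundant, with a median level of 30.2 FPKM against 23.4 FPKM for the 15 that did not pass, and the largest fitted change among the latter was 0.32 (*Pold2*). With all 4 libraries and with each left out in turn, 14 members passed every time: the 6 MCM genes, *Orc2*, *Orc6*, *Cdc45*, *Gins1*, *Prim1*, *Rfc5*, *Fen1* and *Lig1*. In the 3 rescalings of the libraries, 22 of the 25 passed each time. Neither of these joint counts was made for all genes tested. Whether such stability is particular to the replication genes was therefore not tested.

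Genes that work beside this machinery were followed with 3 lists. Among 40 genes of origin firing, the fork and its chromatin, 39 were tested, of which 19 rose, 0 fell (limma, with 0 passing as lower, 37 of 39 fitted above 0) and 20 did not pass, with a median log2 fold change of 0.26. *Gmnn*, which encodes geminin, stood at 56.8 and 57.3 FPKM in Control and 75.9 and 77.5 FPKM with G-CSF (log2 fold change 0.43, SE 0.0442, adjusted p = 0.00450). *Tipin*, a fork protection gene, stood at 47.4 and 47.6 FPKM in Control and 65.7 and 64.8 FPKM with G-CSF (log2 fold change 0.46, SE 0.0448, adjusted p = 0.00393). *Uhrf1*, which brings the maintenance methyltransferase to new DNA, stood at 53.2 and 55.1 FPKM in Control and 70.3 and 71.5 FPKM with G-CSF (log2 fold change 0.39, SE 0.0464, adjusted p = 0.00576), and *Top2a*, a topoisomerase, stood at 99.3 and 103 FPKM in Control and 131 and 125 FPKM with G-CSF (log2 fold change 0.34, SE 0.0472, adjusted p = 0.00743). In all 4 the groups did not overlap, which a choice by smallest p makes likely. Over all genes tested, 34.2% had both G-CSF values above both Control values.

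Most genes of nucleotide supply rose. Of 12 genes of dNTP supply, 7 rose, 1 fell and 4 did not pass, with a median of 0.27. *Rrm2*, the regulated subunit of ribonucleotide reductase, stood at 94.5 and 92.2 FPKM in Control and 132 and 126 FPKM with G-CSF (log2 fold change 0.47, SE 0.0457, adjusted p = 0.00393). *Dut*, which removes dUTP, stood at 23.3 and 25.1 FPKM in Control and 36.2 and 35.02 FPKM with G-CSF (log2 fold change 0.55, SE 0.0601, adjusted p = 0.00500), and *Rrm1* stood at 66.4 and 67.7 FPKM in Control and 86.1 and 82.5 FPKM with G-CSF (log2 fold change 0.33, SE 0.0466, adjusted p = 0.00789). *Tk1*, thymidine kinase of the cytosol, stood at 42.8 and 40.7 FPKM in Control and 54.2 and 52.5 FPKM with G-CSF (log2 fold change 0.35, SE 0.0517, adjusted p = 0.00840). The gene that fell, named after its value was seen, was *Samhd1*, whose product degrades dNTPs. It stood at 106 and 100.03 FPKM in Control and 82.6 and 83.6 FPKM with G-CSF (log2 fold change -0.31, SE 0.0479, adjusted p = 0.00989).

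Regulators of S phase went both ways. Of 26 genes of the E2F and RB families, cyclins and their inhibitors, 25 were tested, of which 9 rose, 1 fell and 15 did not pass, with a median of 0.13. *Mybl2* encodes a cell cycle transcription factor of the MYB family, and stood at 21.6 and 20.7 FPKM in Control and 31.5 and 31.6 FPKM with G-CSF (log2 fold change 0.58, SE 0.0549, adjusted p = 0.00378). *Tfdp1*, the partner of E2F factors, stood at 97.3 and 98.2 FPKM in Control and 127 and 124 FPKM with G-CSF (log2 fold change 0.36, SE 0.0423, adjusted p = 0.00559). Among the E2F genes themselves, *E2f4* (log2 fold change 0.30) and *E2f8* (0.32) rose. The others, *E2f1* (0.12), *E2f2* (-0.05), *E2f3* (0.18), *E2f5* (-0.20), *E2f6* (0.038) and *E2f7* (0.13), did not pass. *Myc* stood at 54.7 and 52.3 FPKM in Control and 79.1 and 70.1 FPKM with G-CSF (log2 fold change 0.48, SE 0.0681, adjusted p = 0.00806), and *Ccna2*, the S phase cyclin, at 68.7 and 68.5 FPKM in Control and 84.2 and 82.2 FPKM with G-CSF (log2 fold change 0.28, SE 0.0437, adjusted p = 0.00998). The single gene that fell was *Cdkn1a*, which encodes the CDK inhibitor p21 and was named after its value was seen (197 and 200.3 FPKM in Control and 156 and 170.2 FPKM with G-CSF, log2 fold change -0.28, SE 0.0543, adjusted p = 0.0164). For comparison, of 22 mitosis genes 17 rose and 0 fell with limma (22 of 22 fitted above 0), with a median of 0.33. With replication at 0.28 and mitosis at 0.33, the medians were close, and their difference was not tested.

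Markers of maturation also differed between the groups. Of 5 granulocyte progenitor markers in the tables (*Mpo*, *Elane*, *Prtn3*, *Ctsg*, *Ms4a3*), all 5 rose, with a summed level of 965 and 838 FPKM in Control and 2246 and 2111 FPKM with G-CSF. *Mpo*, myeloperoxidase, stood at 148 and 133 FPKM in Control and 399 and 404 FPKM with G-CSF (log2 fold change 1.52, SE 0.0605, adjusted p = 1.98e-04). Of 10 markers of maturing neutrophils, 8 fell and 0 rose (limma, 0 of 10 fitted above 0), with a summed level of 13509 and 12613 FPKM in Control and 7818 and 8391 FPKM with G-CSF. *Camp*, a granule peptide of maturing neutrophils, stood at 818 and 757 FPKM in Control and 248 and 201 FPKM with G-CSF (log2 fold change -1.81, SE 0.0994, adjusted p = 6.80e-04). Among 6 monocyte markers, 5 were tested, 1 rose and 1 fell. The sum of the 6 was 371 and 369 FPKM in Control and 373 and 366 FPKM with G-CSF. Such sums do not measure cell proportions. By flow cytometry, the study reported a higher proportion of monocytic MDSCs and a lower proportion of polymorphonuclear MDSCs with G-CSF. Of the macrophage and dendritic cell lists of 6 genes each, 4 genes fell and 0 rose in each (limma, 0 of 6 fitted above 0 in both), and their sums were 172 and 194 against 124 and 142 FPKM, and 2583 and 2214 against 1450 and 1174 FPKM. Of the 6 genes of the mast cell and basophil list, 5 fell and all 6 were fitted below 0, with sums of 138 and 139 FPKM in Control and 85.6 and 94.96 FPKM with G-CSF. Erythroid markers summed to at most 1.61 FPKM in any library, and 1 of the 5 in the tables was tested and did not pass. Lymphocyte markers summed to at most 17.5 FPKM, with 3 of 6 tested, of which 1 (*Cd79a*) fell and the others did not pass. The 5 progenitor markers thus rose and 8 of the 10 neutrophil markers fell. A single comparison of 2 groups cannot show whether these markers and the replication genes vary together. *Mmp8*, with overlapping groups, and *Il1r2* did not pass. Over all genes tested, 12.7% passed as higher and 11.3% as lower. The part of these markers in the change of the replication genes was not tested.

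**Figure D4:**
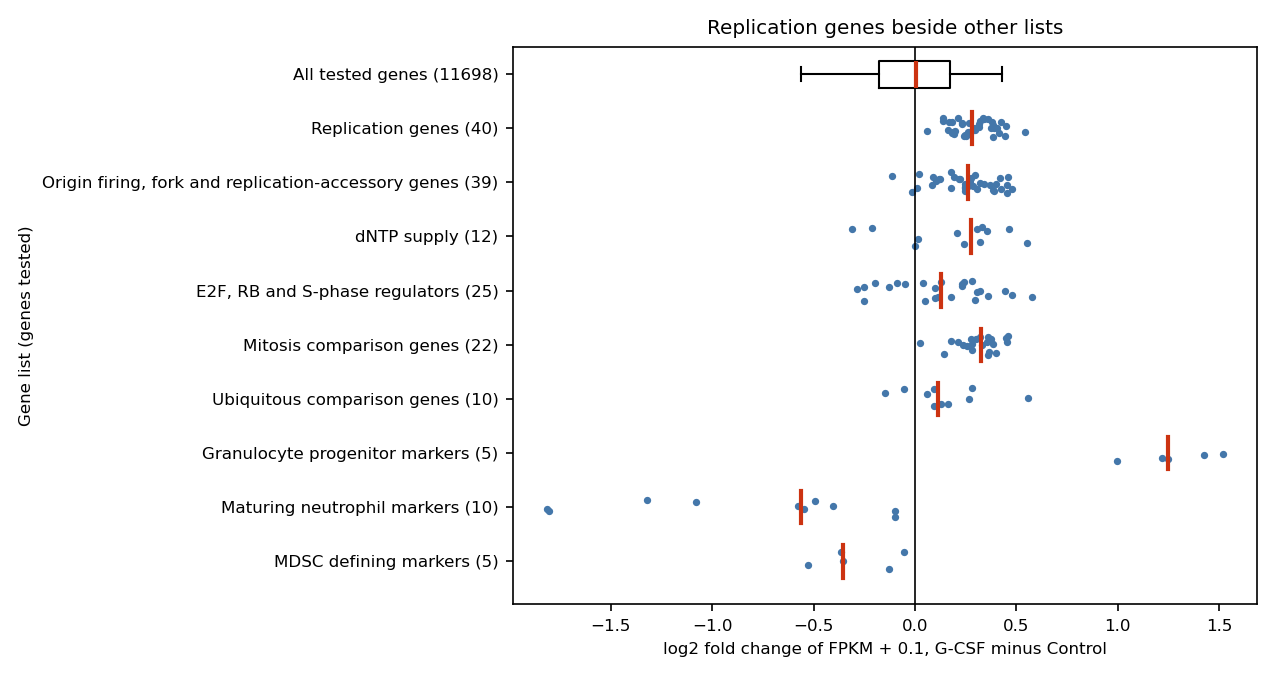
Fitted log2 fold change of FPKM + 0.1 (G-CSF minus Control) by gene list, with the number of genes tested in brackets; each point is a gene, red bars are medians, and the box for all tested genes spans the middle 50% with whiskers at the 5th and 95th percentiles. The replication genes (median 0.28) and mitosis genes (0.33) lie right of 0, granulocyte progenitor markers further right (1.25) and markers of maturing neutrophils left (-0.56).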

How the data were processed

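RNA of 4 cultures of *in vitro* MDSCs (2 Control, 2 G-CSF) was sequenced by the study as 75-base single-end reads from a stranded mRNA kit. The authors deposited 1 table of FPKM per library. The unit was inferred from the values and from the submitters' processing notes, which name TopHat2 2.0.13, Bowtie2 2.2.3, SAMtools 0.1.19, Cufflinks 2.2.1 and mm10. The annotation and settings are not given in the sources used here.

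Genes with at least 0.5 FPKM in 2 of the 4 libraries were kept, and 1287 small RNA genes were left out by symbol, which left 11698 genes. log2(FPKM + 0.1) was fitted with limma 3.58.1 (R 4.3.3, trend in the prior variance, two-sided), with Benjamini-Hochberg adjustment over all genes tested. The script was tested on simulated data. A fold change on this scale understates the change of low genes. Depth was estimated from 1913 low values, of which 66.8% lay within 0.05 reads of a whole read (10% by chance). Windows of 75 bases shared between genes and antisense overlap were counted on GENCODE M21 transcripts, and promoter windows came from RefSeq. The p-values rest on the spread between 2 libraries per group, combined with a spread shared across genes of similar level.

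The members and lists were chosen with earlier results of these data known. Values were given for every member, and for at most 4 genes of each other list, those with the smallest p. *Samhd1* and *Cdkn1a*, the single genes that fell in their lists, were added after their values were seen. The E2F genes, *Ly6c1*, *Ly6c2*, *Mmp8*, *Il1r2*, *Actb* and *Gusb* were also named after their values were seen. The alternatives were other pseudocounts, filters and scalings, limma without trend, voom, a replicate block, and each library left out. No protein sequences were used here.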

Additional observations from a re-analysis of the deposited data

How the results depend on the processing

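The direction of all 40 replication genes was kept under every alternative fit, except that *Rfc3* had log2 fold changes of -0.010 without Control replicate 1 and 0.13 without Control replicate 2, where the cause was not tested. Over all alternatives and members, 504 values stayed on the same side of the threshold, 73 no longer passed and 22 newly passed. Without the trend in the prior variance, 27 replication genes had an unadjusted p under 0.05, a count not made for all genes. At the adjusted threshold 0 replication genes passed in that fit, and 110 of all genes tested passed in place of 2806. Of the 76 tested genes of the accessory, dNTP and E2F lists, 0 passed in place of 37 (limma, and 42 with voom). The cause was not tested. With 1 library left out in turn, 15 to 19 replication genes, 1375 to 1770 of all genes and 23 to 28 genes of those lists passed. There the group with a lone library is assumed to vary like the other. Of the rescalings, TPM (each library rescaled to the same sum) gave 30 replication genes and 1759 of all genes as higher, and upper-quartile scaling 22 and 1285, in place of 25 and 1485. Same-numbered replicates had a correlation of deviations of 0.200 over genes, and the labels do not say that a number marks a shared batch. With the replicate number as a block, 32 replication genes passed, including all 25, and 3854 of all genes tested. With 2 libraries per group, an exact permutation test of a single gene cannot reach the threshold, so the calls rest on the spread shared across genes. At the estimated depth of 12450000 to 15700000 reads, counting error is largest for *Orc1*, with 165 estimated reads in its lowest library.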

Other observations

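Some genes commonly used as references were also higher with G-CSF. Of 10 such genes, 3 rose and 0 fell (limma, 8 of 10 fitted above 0), with a median log2 fold change of 0.11. Over all genes tested, 12.7% passed as higher. *Actb* (log2 fold change -0.15) and *Gusb* (-0.055) were fitted below 0 and did not pass. *Tfrc*, the transferrin receptor, stood at 46.9 and 49.6 FPKM in Control and 71.5 and 70.2 FPKM with G-CSF (log2 fold change 0.56, SE 0.0501, adjusted p = 0.00343). *Ppia*, which encodes cyclophilin A, stood at 2220 and 2187 FPKM in Control and 2676 and 2687 FPKM with G-CSF (log2 fold change 0.28, SE 0.0502, adjusted p = 0.0136). *Hprt*, of purine salvage, stood at 84.01 and 83.3 FPKM in Control and 104 and 97.1 FPKM with G-CSF (log2 fold change 0.27, SE 0.0514, adjusted p = 0.0166). In these 3 genes, named for the smallest p of the list, the groups did not overlap, which that choice makes likely. Among the mitosis genes with the smallest p, *Aurka* stood at 38.6 and 40.7 FPKM in Control and 53.8 and 55.1 FPKM with G-CSF (log2 fold change 0.46, SE 0.0513, adjusted p = 0.00536) and *Plk1* at 45.8 and 42.9 FPKM in Control and 62.6 and 59.1 FPKM with G-CSF (log2 fold change 0.45, SE 0.0567, adjusted p = 0.00634), both mitotic kinases.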
